A study of Mus musculus with 4 samples.

Results

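Collagens are the main structural proteins of the extracellular matrix, and each collagen chain is the product of a gene of its own. The array carried 40 genes whose symbol has the form Col, a number, a, a number, and these are all collagen chain genes among 31824 genes named on the array. They were read by 59 of 39429 probes on 68 spots, and 13 of the 40 genes had more than 1 probe. By class, 11 genes encode chains of fibrillar collagens, 6 encode chains of the basement membrane collagen (type IV) and 23 encode chains of other collagens.

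RNA was measured in mouse embryonic fibroblasts (MEFs), connective tissue cells grown from mouse embryos, with intact p53 (WT) and without p53 (p53-/-), each untreated and treated with doxorubicin, an anthracycline that damages DNA and activates p53. The arrays addressed which genes respond to doxorubicin and whether that response depends on p53, the transcription factor that switches on stress and arrest genes after DNA damage. Each of the 4 conditions was read on 1 one-color array, and all 4 arrays were on 1 slide, so no difference between conditions has a replicate check, and no p-value is given. The dose and duration of doxorubicin for the arrays and the number of embryos or cultures behind each RNA are not given in the sources used here, nor is the allele behind p53-/-. Trp53, the gene for p53, had signals of 1228 and 3442 in untreated and doxorubicin-treated WT MEFs against 442 and 543 in the p53-/- MEFs, and whether its probe covers the altered part of Trp53 was not analysed here. Fibroblast markers were well above background on all 4 arrays for 10 of 10 genes.

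Fibrillar collagens (types I, II, III, V, XI, XXIV and XXVII) assemble into the banded fibrils that give connective tissue its tensile strength, and types I, III and V are the classic products of fibroblasts. Type IV chains form the sheet-like network of basement membranes. The remaining collagens coat fibrils (the fibril-associated collagens, or FACITs), build beaded filaments, hexagonal networks or anchoring fibrils, span the plasma membrane, or, as the multiplexins do, sit in basement membrane zones and release fragments such as endostatin.

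The promoters of 4 of these genes are shown. Col4a1 and Col4a2 were taken as a pair with overlapping windows, and Col9a2 and Col18a1 for their high WT doxorubicin ratios. Expression was not tested against these sequences. Of the 40 genes, 32 had a window in the RefSeq promoter set (250 bases before to 50 after the transcription start, GRCm38.p6), with 35 windows in all. Those without one were Col1a1, Col2a1, Col4a3, Col5a2, Col9a3, Col12a1, Col14a1 and Col22a1. Col4a1 and Col4a2, the genes of the most widespread basement membrane chains, lie head to head on opposite strands, with annotated starts 21 bases apart. Each start lies downstream of the other, so the annotated transcripts overlap at their beginnings. Their windows (chr8:11312777-11313076, minus strand, and chr8:11312555-11312854, plus strand) shared 78 bases, which are in capitals and read as reverse complements of each other:
Col4a1: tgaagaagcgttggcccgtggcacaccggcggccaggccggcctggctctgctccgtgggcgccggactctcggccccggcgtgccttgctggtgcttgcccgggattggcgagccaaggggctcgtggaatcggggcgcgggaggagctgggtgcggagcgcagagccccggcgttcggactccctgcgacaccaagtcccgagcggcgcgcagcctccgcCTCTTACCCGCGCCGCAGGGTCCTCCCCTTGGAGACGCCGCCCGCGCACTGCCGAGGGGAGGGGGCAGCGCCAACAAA
Col4a2: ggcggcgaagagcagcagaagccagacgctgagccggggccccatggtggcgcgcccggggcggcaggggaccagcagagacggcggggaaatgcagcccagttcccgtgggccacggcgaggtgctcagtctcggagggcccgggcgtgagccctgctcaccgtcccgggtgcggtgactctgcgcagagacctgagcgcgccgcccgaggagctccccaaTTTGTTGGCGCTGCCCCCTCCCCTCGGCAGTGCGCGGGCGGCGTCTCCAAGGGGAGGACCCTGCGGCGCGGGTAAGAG
Col9a2 (chr4:121039316-121039615, plus strand) and the upstream of both Col18a1 windows (chr10:77166481-77166780, minus strand) belong to the genes with the highest log2 ratios for doxorubicin in WT MEFs. In the first, capitals mark 2 overlapping matches to the p53 half-site, and in the second they mark 3 GC boxes (GGGCGG, read on both strands):
Col9a2: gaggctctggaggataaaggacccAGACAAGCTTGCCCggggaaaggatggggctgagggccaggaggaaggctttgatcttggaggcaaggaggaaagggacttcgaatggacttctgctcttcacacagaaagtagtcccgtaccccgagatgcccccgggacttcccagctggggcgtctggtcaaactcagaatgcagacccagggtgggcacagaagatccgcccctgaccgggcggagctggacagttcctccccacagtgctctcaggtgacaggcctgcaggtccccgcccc
Col18a1: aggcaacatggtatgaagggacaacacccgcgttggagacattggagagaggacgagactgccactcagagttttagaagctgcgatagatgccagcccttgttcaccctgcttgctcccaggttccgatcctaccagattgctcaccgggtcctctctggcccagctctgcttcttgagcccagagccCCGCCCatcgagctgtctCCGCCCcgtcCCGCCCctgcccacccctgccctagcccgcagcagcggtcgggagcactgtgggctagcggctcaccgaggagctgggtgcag
Searched on both strands, the p53 half-site was found in 4 of the 35 collagen windows (11.4%; Col6a6, Col9a2, Col17a1 and Col20a1) against 8.36% of 32851 windows of all genes. The GC box was found in 21 collagen windows (60.0%) against 35.7% of all windows. The downstream Col18a1 window (chr10:77113656-77113955, minus strand), not shown, held 0 GC boxes. The Col9a2 window also matched the GC box, which is not in capitals there. The CCAAT sequence was found in 12 (34.3%) against 37.4%, and TATAAA in 5 (14.3%) against 13.6%. Such a match is a run of letters and not a measured site, and the shares were not tested.

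Of the 40 genes, 32 were well above background on all 4 arrays by the scanner's own call, 3 on 1 or 2 arrays, and 5 on none. All 11 fibrillar genes, 5 of 6 basement membrane genes and 16 of 23 other genes were well above background on all 4 arrays. The 5 genes found on no array were Col4a3, Col9a3, Col15a1, Col17a1 and Col19a1. Values are given as scaled levels, the signal of a gene's brightest probe divided by the 75th percentile of its array, always with WT before p53-/- MEFs and, within a genotype, untreated before doxorubicin-treated MEFs. Levels of different genes come from different probes and are not set against each other. A ratio is a log2 ratio of 2 scaled levels, and a gene is called higher or lower where the ratio reaches 2-fold. Among 253 probes with 10 repeat spots, that of Col4a1 included, the SD between spots was 0.11 for a log2 ratio. It was 0.16 for a difference of 2 such ratios. These SDs cover the error of spots on an array and not that of cells or RNA. In bulk RNA, fewer cells of a type and less RNA per cell cannot be told apart.

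**Figure D1:**
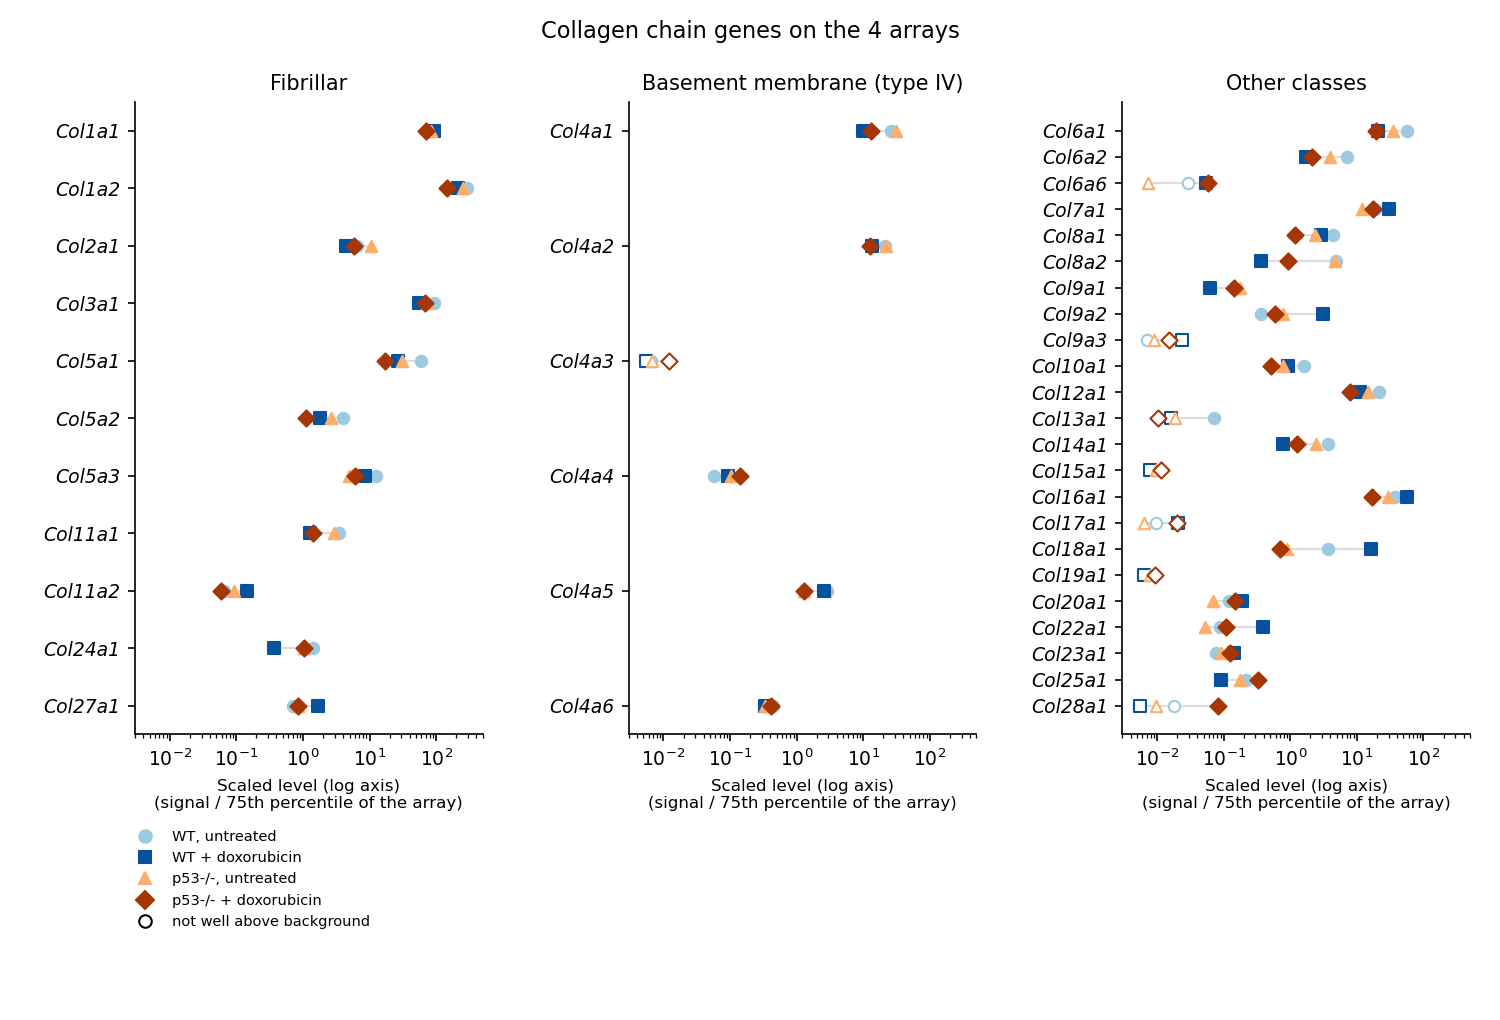
Scaled level (signal divided by the 75th percentile of the array, log axis) of the 40 collagen genes on the 4 arrays, in panels by class. Each point is 1 array, with circles (untreated) and squares (doxorubicin) for WT MEFs and triangles (untreated) and diamonds (doxorubicin) for p53-/- MEFs, and open points were not well above background. Among the genes with 4 filled points those of Col8a2, Col9a2 and Col18a1 spread widest, while those of Col1a1 lie close together.

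In WT MEFs, more collagen genes were lower than higher with doxorubicin. Of the 32 genes measured on both arrays, 10 were at least 2-fold lower (31.25%, where 10.4% of 17546 measured genes were that much lower) and 5 were at least 2-fold higher (15.62%, where 11.0% of measured genes were). The median log2 ratio of the 32 genes was -0.55, against 0.01 for all genes. In p53-/- MEFs, 4 of 32 were lower (12.5%, against 6.89% of 16978 measured genes) and 2 were higher (6.25%, against 9.24%), with a median of -0.51 against 0.00. With arrays scaled to their medians in place of the 75th percentile, the counts were 13 lower and 3 higher in WT MEFs and 14 lower and 0 higher in p53-/- MEFs, but that scaling moved the median of all genes to -0.27 and -0.30. Quantile normalization gave 10 lower and 4 higher in WT MEFs and 4 lower and 0 higher in p53-/- MEFs, and normexp background correction gave 9 and 4, and 4 and 0.

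**Figure D2:**
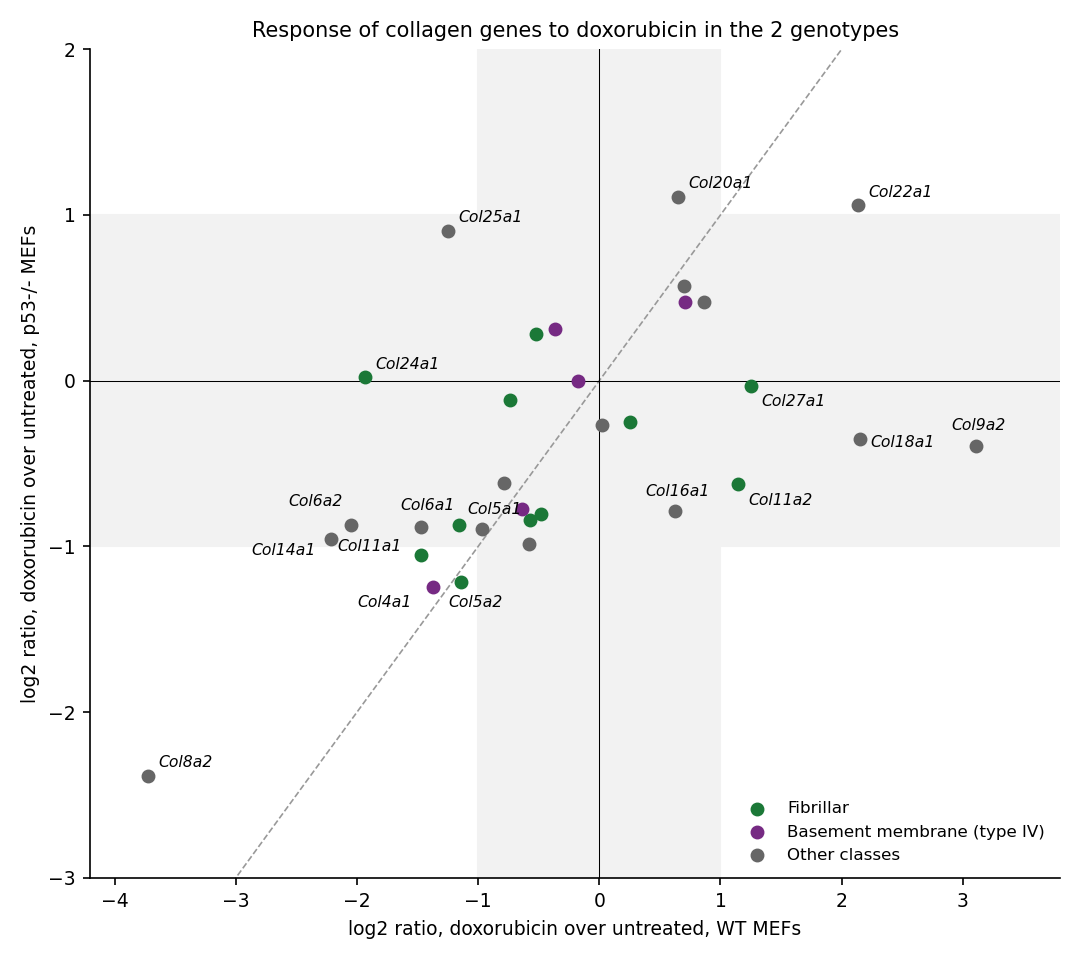
Log2 ratio of doxorubicin-treated over untreated MEFs in WT (horizontal axis) and p53-/- cells (vertical axis) for the 32 collagen genes well above background on all 4 arrays, 1 point per gene, colored by class. Gray bands hold ratios under 2-fold and the dashed line marks equal ratios; Col9a2 and Col18a1 lie far to the right near a p53-/- ratio of 0, and Col8a2 is lowest on both axes.

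Fibrillar genes, measured for 11 of 11 chains, were called lower in WT MEFs for 4 and higher for 2 (36.4% and 18.2%, against 10.4% and 11.0% of all measured genes). The median log2 ratio was -0.57. In p53-/- MEFs 2 were lower and 0 higher (18.2% and 0%, against 6.89% and 9.24%), with a median of -0.62. The chains of type I collagen, the main protein of fibrils, were not among them. Col1a1 had scaled levels of 78.6, 93.9, 83.5 and 70.4, and its log2 ratio for doxorubicin was 0.26 in WT MEFs and -0.25 in p53-/- MEFs. The former is -0.02 with scaling to the array median, so Col1a1 has no settled direction in WT MEFs. Col1a2, its partner in the type I helix, had levels of 294, 210.0, 257 and 148, lower with doxorubicin in both genotypes by less than 2-fold (log2 values of -0.48 and -0.80). Over the alternatives the p53-/- value of Col1a2 ranged from -1.10 to -0.47 and so could pass 2-fold. Col3a1, the type III chain of pliable tissues, had levels of 93.6, 56.3, 73.3 and 67.6, which gave ratios of -0.73 and -0.12. Its ratio in p53-/- MEFs ranged over the alternatives from -0.41 to 0.06 and so changed sign.

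Type V and XI chains, which nucleate fibrils and limit their diameter, made up most of the lower fibrillar genes. Col5a1 had levels of 60.2, 27.0, 31.2 and 17.1, 2.23-fold lower with doxorubicin in WT and 1.83-fold lower in p53-/- MEFs. Levels of Col5a2 were 3.93, 1.78, 2.60 and 1.12, lower by 2.21-fold and 2.33-fold. Col11a1 stood at 3.50, 1.26, 2.89 and 1.39, lower by 2.78-fold and 2.07-fold. In all 3 genes the doxorubicin-treated array was below the untreated array of the same genotype, and the untreated WT array was the highest of the 4. Col5a3, the third type V chain, differed by genotype instead. Its levels were 12.3, 8.57, 4.92 and 5.99, and it was 2.51-fold lower in p53-/- than WT MEFs without treatment and 1.43-fold lower with it.

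Of the remaining fibrillar genes, 3 were called in WT MEFs and had their highest or lowest level on the doxorubicin-treated WT array. Col24a1, a type XXIV chain described in developing bone, had levels of 1.42, 0.373, 1.03 and 1.05, so that it was 3.81-fold lower with doxorubicin in WT MEFs (log2 ratio of -1.93) and showed a ratio of 0.02 in p53-/- MEFs. Col27a1, a cartilage-associated fibrillar chain, had levels of 0.710, 1.69, 0.846 and 0.829, thus 2.38-fold higher in WT MEFs with a ratio of -0.03 in p53-/- MEFs. Under scaling to the array median its WT ratio was 0.97, just short of 2-fold. Col11a2, a type XI chain of cartilage, was dim on every array, with levels of 0.0660, 0.146, 0.0917 and 0.0596. It was 2.21-fold higher with doxorubicin in WT MEFs and 1.54-fold lower in p53-/- MEFs, and in untreated p53-/- MEFs its signal was below the brightest of 153 negative control spots. The WT ratio was under 2-fold with 3 alternatives (0.87 with median scaling, 0.90 with quantile normalization and 0.82 with normexp). Col2a1, the main cartilage collagen, was between the thresholds in all comparisons, with levels from 4.44 to 10.3 and both doxorubicin ratios below 0. Its lowest level was also in doxorubicin-treated WT MEFs.

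Basement membrane genes were called lower with doxorubicin for 1 of 5 measured chains in each genotype (20.0%, against 10.4% and 6.89% of all measured genes). None was called higher (against 11.0% and 9.24%). The class median was -0.37 in WT MEFs and 0.00 in p53-/- MEFs (log2 scale). The called gene was Col4a1 in both. Its probe (chr8:11199009-11199068, mm9) was spotted 10 times per array, and the scaled levels were 25.7 ± 0.722, 9.90 ± 0.291, 30.8 ± 0.895 and 13.0 ± 0.399 (SD, n = 10 spots). It was thus 2.60-fold lower with doxorubicin in WT and 2.37-fold lower in p53-/- MEFs, which exceeded the SD between spots. Col4a2, whose promoter window overlaps that of Col4a1 as shown above, had levels of 21.1, 13.5, 21.9 and 12.8, lower by 1.56-fold and 1.71-fold. For both genes the doxorubicin-treated arrays were below the untreated arrays, and the genotypes differed by log2 ratios (p53-/- over WT) between -0.08 and 0.39.

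The X-linked chain genes Col4a5 and Col4a6, which also lie head to head in the genome but with starts 1343 bases apart and no shared bases in their windows, gave other values. Col4a5 had levels of 2.88, 2.55, 1.29 and 1.29. It was 2.24-fold lower in p53-/- than WT MEFs without treatment and 1.98-fold lower with it, while its doxorubicin ratios were -0.18 and 0.00. Col4a6 lay between 0.334 and 0.439 on the 4 arrays, and its 2 probes gave opposite signs for doxorubicin in p53-/- MEFs (-0.35 and 0.31). Col4a4, a chain of specialized basement membranes such as that of the glomerulus, was dim (0.0568 to 0.142) and below the brightest negative control in untreated p53-/- MEFs. Endothelial cells make much type IV collagen, and the summed scaled levels of their markers were 3.81, 4.56, 3.15 and 2.62 with 4, 5, 3 and 3 of 8 genes well above background, nearly all of it from Kdr (3.55, 4.09, 2.80 and 2.20), and Cdh5 and Tie1 were above background on no array. Their part in these values was not tested.

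The other classes held both the highest and the lowest ratios. Of 16 measured genes, 5 were called lower and 3 higher in WT MEFs (31.25% and 18.75%, against 10.4% and 11.0% of all measured genes). The median was -0.28. In p53-/- MEFs, 1 was lower and 2 were higher (6.25% and 12.5%, against 6.89% and 9.24%), shares close to those of all genes, with a median of -0.51. The lower genes in WT MEFs came from beaded filaments, hexagonal networks, FACITs and membrane collagens.

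Col6a1 and Col6a2 encode chains of the beaded filaments that link cells to fibrils. Col6a1 had levels of 57.5, 20.8, 35.3 and 19.2, 2.77-fold lower with doxorubicin in WT and 1.84-fold lower in p53-/- MEFs. Col6a2 had levels of 7.07, 1.71, 3.93 and 2.15, and the folds were 4.14 and 1.83. The untreated WT array was the highest for both chains. Col6a6, a chain with a narrower tissue range, was well above background with doxorubicin only, at least 1.84-fold higher than untreated in WT and at least 1.88-fold higher in p53-/- MEFs. This was so for its brighter probe, and the other was well above background on no array.

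Col8a2, which with Col8a1 makes the hexagonal lattice under endothelial sheets, had the lowest doxorubicin ratio of all collagen genes in both genotypes. Its brighter probe (chr4:125991441-125991500, mm9) gave levels of 4.80, 0.364, 4.76 and 0.913. The untreated arrays were close together, and doxorubicin-treated MEFs were 13.2-fold lower in WT and 5.22-fold lower in p53-/- cells. The second probe gave log2 ratios of -1.36 and -1.80 where the first gave -3.72 and -2.38. With both probes the gene was more than 2-fold lower in both genotypes, but they disagreed on which genotype was lower after treatment (log2 ratio of p53-/- over WT of 1.33 and -0.11). Col8a1 had levels of 4.34, 2.91, 2.36 and 1.19, within 2-fold for doxorubicin in each genotype and 2.43-fold lower in p53-/- than WT MEFs after treatment. Col10a1, the short-chain collagen of hypertrophic cartilage, stood at 1.59, 0.922, 0.788 and 0.513, and the untreated p53-/- array was 2.02-fold below the untreated WT array. Another Col10a1 probe was well above background on no array.

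FACITs split in both directions. Col14a1, which binds fibrils of skin and tendon, had levels of 3.65, 0.786, 2.46 and 1.27, 4.64-fold lower with doxorubicin in WT and 1.94-fold lower in p53-/- MEFs. Its second probe gave a WT log2 ratio of -1.44 where the first gave -2.21. Col12a1, the fibril-coating chain of dense connective tissue, fell just short of the threshold in both genotypes, with levels from 7.89 to 21.5 and log2 ratios of -0.97 and -0.89. Over the alternatives these ratios reached -1.24 and -1.19, past 2-fold.

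Col9a2, a type IX chain of the cartilage fibril surface, had the highest doxorubicin ratio of all collagen genes in WT MEFs. From its probe (chr4:120727698-120727757, mm9), levels were 0.360, 3.11, 0.765 and 0.581. Doxorubicin-treated WT MEFs stood above the other 3 arrays, 8.63-fold over untreated WT (log2 ratio of 3.11), and the p53-/- arrays differed by a log2 ratio of -0.40. Without treatment the order of genotypes was the opposite, with p53-/- MEFs 2.12-fold higher. Col9a1, its partner chain, did not follow. It was dim, with levels of 0.0613, 0.0622, 0.173 and 0.144, near equal with and without doxorubicin in WT MEFs and higher in p53-/- MEFs by 2.83-fold untreated and 2.32-fold treated (a log2 ratio of 0.75 for the latter with normexp). A second Col9a1 probe was well above background on no array. Chondrocyte markers were low throughout, with summed scaled levels of 0.648, 0.745, 1.10 and 1.21 and 4, 4, 4 and 5 of 7 genes well above background, and Matn1 and Chad were above background on no array. Their part in the cartilage collagen values was not tested.

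Col16a1, a FACIT that sits near basement membranes, went in opposite directions in the genotypes. Its levels were 36.9, 56.8, 29.5 and 17.2, so it was 1.54-fold higher with doxorubicin in WT and 1.72-fold lower in p53-/- MEFs, and treated p53-/- MEFs were 3.31-fold below treated WT MEFs. Its 3 probes ranged from 0.02 to 0.62 in WT, where only the brightest reached 1.5-fold, and from -0.78 to -0.42 in p53-/- MEFs. Between treated genotypes they ranged from -1.78 to -0.57 (log2 ratio of p53-/- over WT), and the dimmest did not reach 2-fold. Col22a1, a collagen of tissue junctions such as that of muscle and tendon, was the only gene called higher in both genotypes. Levels were 0.0872, 0.384, 0.0528 and 0.110, up 4.40-fold in WT and 2.08-fold in p53-/- MEFs. Col20a1, another FACIT, had levels of 0.119, 0.186, 0.0681 and 0.147, 1.57-fold higher in WT and 2.16-fold higher in p53-/- MEFs. In untreated p53-/- MEFs both signals were below the brightest negative control, and both p53-/- ratios were under 2-fold with median scaling, quantile normalization and normexp. Skeletal muscle markers had summed scaled levels of 7.31, 4.17, 8.17 and 4.74 with 3, 2, 3 and 2 of 6 genes well above background, most of it from Acta1 (6.47, 3.21, 7.70 and 4.46), and Myod1, Myf5 and Ckm were above background on no array. Their part in the Col22a1 values was not tested.

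Col18a1, the multiplexin whose end fragment is endostatin, combined a difference by treatment with a difference by genotype. Its levels (chr10:76514926-76514985, mm9) were 3.67, 16.3, 0.893 and 0.699. Doxorubicin-treated WT MEFs stood 4.44-fold above untreated WT MEFs, and both p53-/- arrays were below both WT arrays. The p53-/- over WT folds were 4.11 lower untreated and 23.3 lower treated, and the doxorubicin log2 ratio in p53-/- MEFs was -0.35. Its second probe gave 2.09 for doxorubicin in WT MEFs, 0.05 in p53-/- MEFs and -3.89 between treated genotypes, where the first gave 2.15, -0.35 and -4.54. Markers of epithelial cells, which also make type XVIII collagen, had summed scaled levels of 7.53, 30.8, 7.70 and 35.4 with 4, 6, 4 and 5 of 8 genes well above background, led by Krt19 and Krt18, while Epcam and Cldn4 were above background on no array. Leukocyte markers summed to 1.17, 4.41, 0.944 and 1.19 with 5, 6, 5 and 4 of 7 genes well above background. Cd14 alone set the peak of that sum, at 0.247, 3.31, 0.299 and 0.461, while Ptprc, the pan-leukocyte marker, stood at 0.0315, 0.0366, 0.0381 and 0.0431. The part of these cells in the values of Col9a2 and Col18a1 was not tested.

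Among membrane-spanning collagens, Col25a1 was lower with doxorubicin in WT and higher in p53-/- MEFs. Its levels were 0.216, 0.0906, 0.173 and 0.324, 2.38-fold lower and 1.87-fold higher, and treated p53-/- MEFs were 3.58-fold above treated WT MEFs. The WT ratio was -0.93 with normexp, and only 1 of its 4 probes was above background. Col23a1 was dim, and its brightest probe was within 2-fold in all comparisons. A second probe of near equal signal gave -0.60 for doxorubicin in p53-/- MEFs where the first gave 0.48. Between treated genotypes the second gave a log2 ratio of -1.15, past 2-fold, where the first gave -0.18. Col13a1 was well above background in untreated WT MEFs only, at least 2.98-fold above treated WT and at least 2.36-fold above untreated p53-/- MEFs. Col28a1, a chain outside these groups, was well above background in treated p53-/- MEFs only, at least 2.64-fold above untreated p53-/- and at least 3.33-fold above treated WT MEFs. Col7a1, which forms the anchoring fibrils of skin, was higher with doxorubicin in both genotypes by less than 2-fold, with levels of 18.4, 29.9, 11.9 and 17.8.

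Set side by side, the calls of the genotypes overlapped in part. Of the 10 genes lower in WT MEFs, Col4a1, Col5a2, Col8a2 and Col11a1 were also called lower in p53-/- MEFs, and Col5a1, Col6a1, Col6a2, Col14a1, Col24a1 and Col25a1 were not. The p53-/- log2 ratios of Col5a1, Col6a1, Col6a2 and Col14a1 were -0.87, -0.88, -0.87 and -0.95, just short of 2-fold. Over the alternatives they reached -1.17, -1.18, -1.17 and -1.25, so the lack of a p53-/- call for these genes depends on the processing. Of the 5 genes higher in WT MEFs, Col22a1 was also called higher in p53-/- MEFs, and Col9a2, Col11a2, Col18a1 and Col27a1 were not. Calls shared by the genotypes thus made up 4 of 10 lower and 1 of 5 higher calls in WT MEFs (40.0% and 20.0%) and 4 of 4 lower and 1 of 2 higher calls in p53-/- MEFs. Among all 16538 genes measured on the 4 arrays, 31.25% of lower and 37.7% of higher calls in WT MEFs, and 47.8% and 45.4% of those in p53-/- MEFs, were shared. Whether collagen genes differ from all genes in this was not tested. The difference of the log2 ratios (WT minus p53-/-) reached 1 for 6 of 32 genes (18.75%, against 8.39% of these 16538 genes) and -1 for 5 (15.6%, against 9.83%). It was 3.51 for Col9a2 and 2.50 for Col18a1 at the upper end and -2.16 for Col25a1 and -1.95 for Col24a1 at the lower end. With 1 array per condition the difference between genotypes was not tested.

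**Figure D3:**
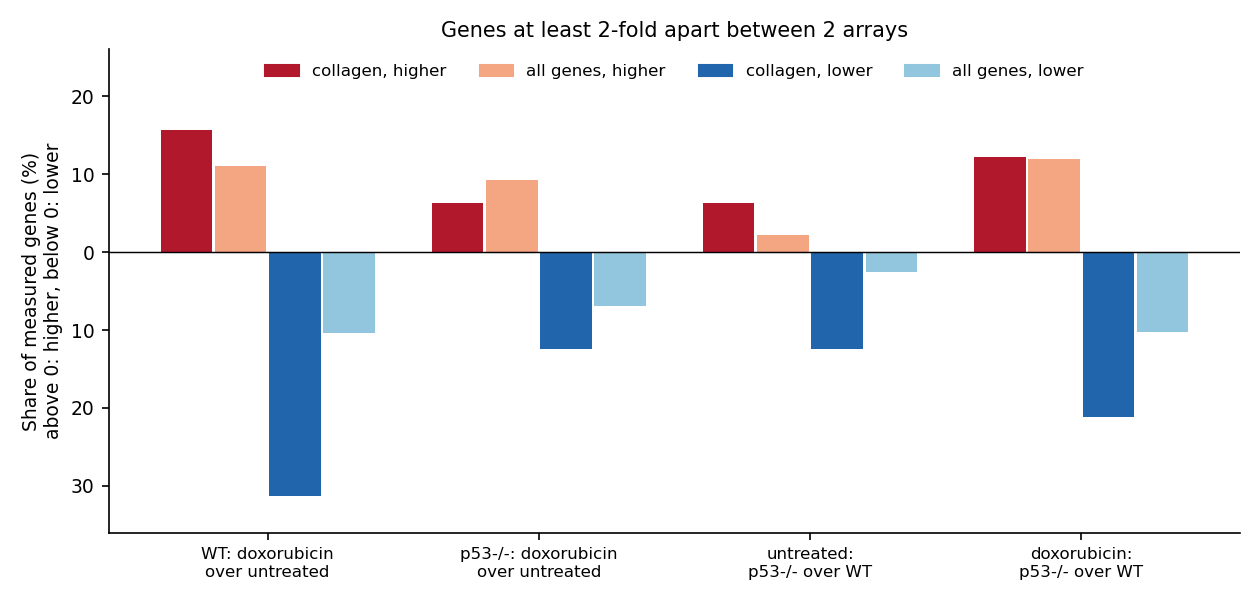
Share of measured genes at least 2-fold higher (bars above 0) or lower (bars below 0) in the 4 comparisons, in percent, for collagen genes (dark) and all genes (light). For doxorubicin in WT MEFs 31.25% of collagen genes are lower against 10.4% of all genes.

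Comparison of the genotypes without treatment addressed whether collagen expression differs in unstressed MEFs. Of 32 measured genes, 4 were at least 2-fold lower in p53-/- MEFs (12.5%, against 2.61% of 17318 measured genes) and 2 were at least 2-fold higher (6.25%, against 2.15%), with a median log2 ratio of -0.37 against -0.00 for all genes. The lower genes were Col4a5, Col5a3, Col10a1 and Col18a1, and the higher genes were Col9a1 and Col9a2. By class, median ratios were -0.28 for fibrillar, 0.05 for basement membrane and -0.60 for other collagens. Without the genes whose signal did not exceed the brightest negative control, the basement membrane median was -0.17, so that class had no settled direction.

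After doxorubicin, 7 of 33 measured genes were at least 2-fold lower in p53-/- MEFs (21.2%, against 10.3% of 17918 measured genes) and 4 were at least 2-fold higher (12.1%, against 11.9%), with a median of -0.34 against 0.00. Lower genes were Col8a1, Col9a2, Col11a2, Col16a1, Col18a1, Col22a1 and Col27a1. Higher genes were Col8a2, Col9a1, Col24a1 and Col25a1. Col18a1 was lower and Col9a1 higher in p53-/- MEFs both without and with doxorubicin, and no other collagen gene was called in the same direction in both. The matching share over all genes was not worked out, so this overlap is not read as a trait of collagen genes. Class medians were -0.51 for fibrillar, 0.28 for basement membrane and -0.34 for other collagens, and averaging the probes of each gene in place of taking the brightest turned the basement membrane value to -0.082.

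**Figure D4:**
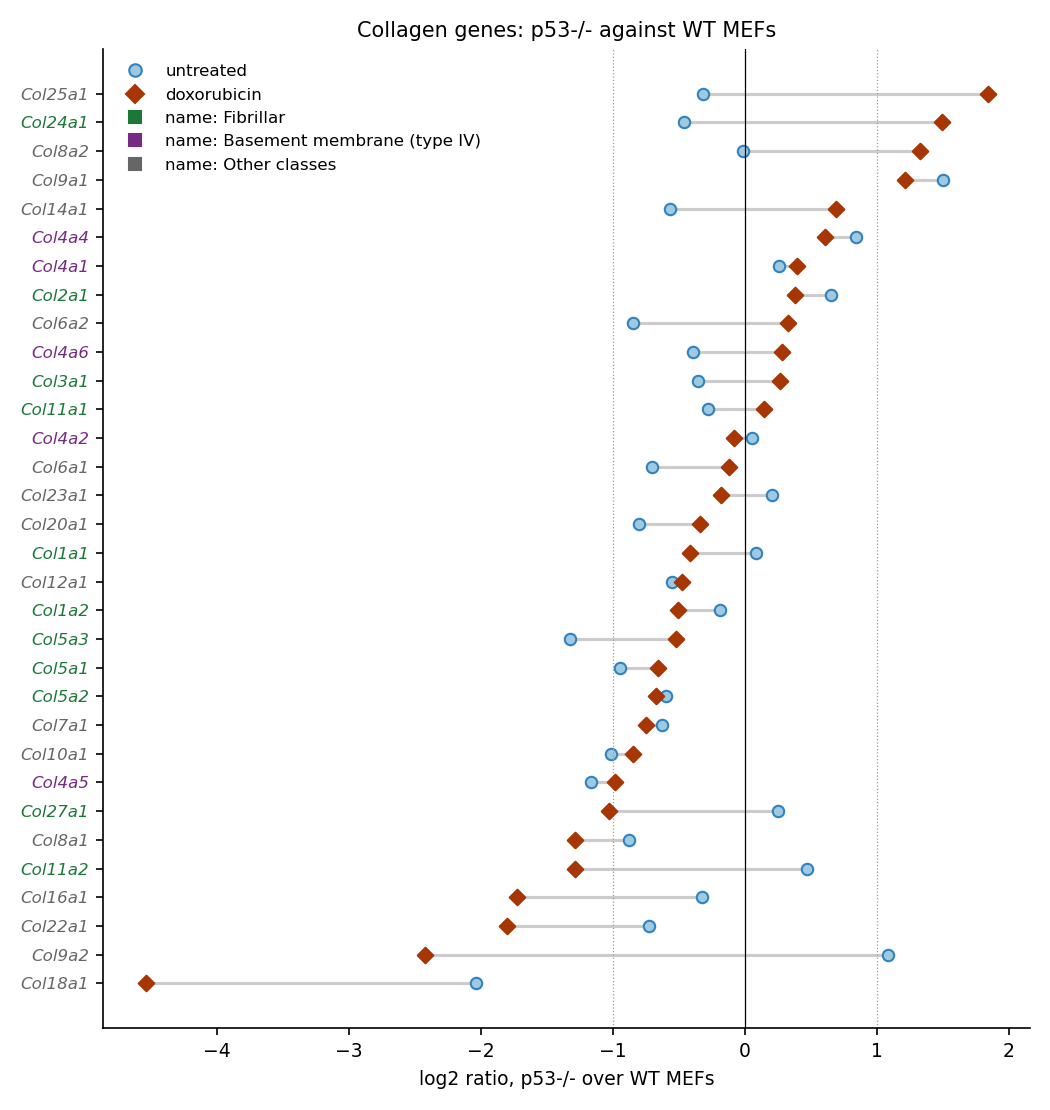
Genotype difference (log2 of p53-/- divided by WT, horizontal axis) of the 32 collagen genes well above background on all 4 arrays, untreated (circles) and with doxorubicin (diamonds), ordered by the latter. Dotted lines mark 2-fold; Col18a1 lies left of -1 at both points and Col9a1 right of 1, while Col9a2 moves from 1.09 to -2.42.

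Across the 4 conditions, untreated WT MEFs held the highest level for 16 of the 32 genes and doxorubicin-treated p53-/- MEFs the lowest for 12. For fibrillar genes these were 7 and 5 of 11. Doxorubicin-treated WT MEFs were at both ends, highest for 10 genes and lowest for 9. The same counts were not made over all genes, so whether this order is particular to collagen genes was not tested.

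A procollagen chain is hydroxylated and folded in the endoplasmic reticulum, exported, trimmed of its propeptides, cross-linked outside the cell and bound by proteoglycans and receptors. Lists of genes for these steps held 48 genes on the array, of which 42 were measured in every comparison. With doxorubicin, 13 were called lower and 2 higher in WT MEFs (31.0% and 4.76%, against 10.4% and 11.0% of all measured genes). The median log2 ratio was -0.47. In p53-/- MEFs, 11 were lower and 1 higher (26.2% and 2.38%, against 6.89% and 9.24%), with a median of -0.63. The lists of single steps hold few genes, and their counts below were not tested against these shares.

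Enzymes that hydroxylate or glycosylate the chains, with their partners, were mostly within 2-fold, as were all genes. In each genotype 1 of 13 was lower (7.69%, against 10.4% and 6.89% of all measured genes), with medians of -0.19 and -0.16. P4ha1, a catalytic subunit of prolyl 4-hydroxylase, had scaled levels of 1.32, 1.16, 0.874 and 0.868. P4ha2, another such subunit, had levels of 7.92, 3.40, 5.36 and 3.50 and was the gene called lower in WT MEFs (log2 ratio of -1.22). Plod2, the lysyl hydroxylase of cross-link sites, differed most between genotypes in this list, with levels of 3.89, 6.70, 4.09 and 1.84. WT MEFs gave a ratio of 0.79 and p53-/- MEFs one of -1.15, where it was the gene called lower. Plod3 had ratios of -0.17 and 0.57.

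Chaperones and export factors were lower for 2 of 7 genes in each genotype, with medians of -0.53 and -0.95. Serpinh1, the collagen chaperone HSP47, had levels of 75.9, 61.0, 63.9 and 43.3, lower with doxorubicin by less than 2-fold in both genotypes (-0.32 and -0.56). Of propeptide proteinases and their enhancers, 1 of 6 was lower in WT and 3 of 6 in p53-/- MEFs, with medians of -0.09 and -0.60. Bmp1, the proteinase that removes C-propeptides, had levels of 24.9, 33.8, 20.1 and 19.6 and ratios of 0.44 and -0.03, while Pcolce2, an enhancer of that cleavage, had ratios of 0.56 and 0.83.

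Cross-linking enzymes went both ways, with 2 of 5 lower and 1 higher in each genotype. Lox, a lysyl oxidase, had levels of 15.8, 10.6, 9.14 and 7.21 (ratios of -0.57 and -0.34). Loxl3 was called lower in both genotypes, with ratios of -2.16 and -2.22, and Loxl4 was called higher in both, with ratios of 2.11 and 3.78. Fibril-associated proteoglycans were called lower for 4 of 5 genes in WT and 1 of 5 in p53-/- MEFs, with medians of -1.30 and -0.76. Lum, which encodes the fibril-spacing proteoglycan lumican, had the lowest ratio of all 42 genes in WT MEFs (-4.81, and -2.34 in p53-/- MEFs). Of the receptors, 3 of 6 were lower and 1 higher in WT MEFs and 2 of 6 lower in p53-/- MEFs, with medians of -1.12 and -0.82. Itga11, the integrin subunit for fibrillar collagen on fibroblasts, had ratios of -3.34 and -2.60. The receptor tyrosine kinase Ddr1 had ratios of 1.02 and 0.14, and the integrin subunit Itga10 had ratios of 0.88 and 0.24. The sum of fibroblast markers, a list that shares Lum and the proteoglycan gene Dcn with these genes, was 409, 335, 262 and 264, and most of it came from Thy1, Vim and Fbln2. Thy1 was higher with doxorubicin in WT MEFs (79.2 and 94.0), while Lum, Dcn and 3 other fibroblast markers were more than 2-fold lower there. These were Pdgfra (1.31, 0.128, 2.22 and 1.19), Pdgfrb (16.3, 2.997, 16.4 and 4.93) and Mfap5 (7.70, 1.28, 3.34 and 1.44). Their part in the lower values of the collagen genes was not tested.

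**Figure D5:**
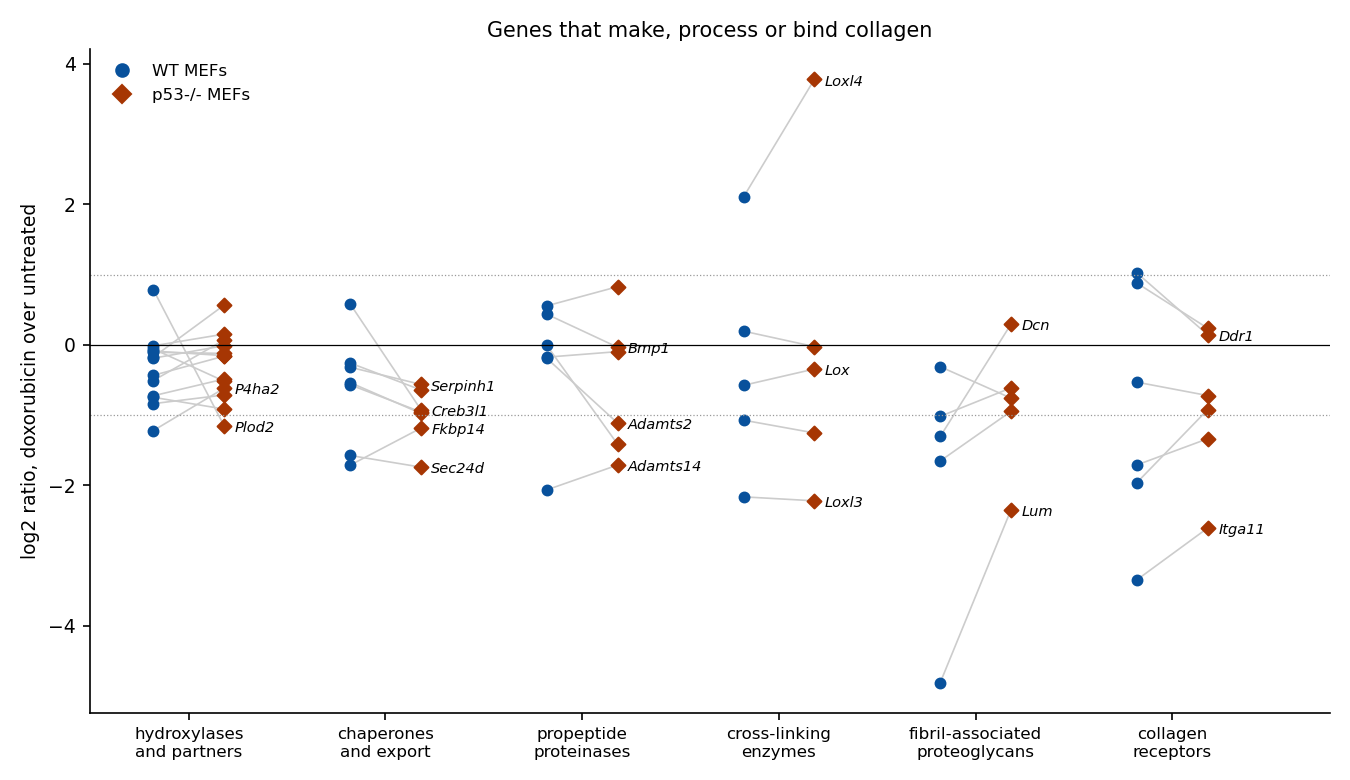
Log2 ratio of doxorubicin-treated over untreated MEFs for 42 genes that make, process or bind collagen, grouped by step, with circles for WT and diamonds for p53-/- MEFs and a line joining each gene. Dotted lines mark 2-fold; Loxl4 lies above 2 and Lum, Itga11 and Loxl3 below -2 in both genotypes.

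Between genotypes, 3 of the 42 genes were lower and 0 higher in untreated p53-/- MEFs (7.14% and 0%, against 2.61% and 2.15% of all measured genes, with a median of -0.28). After doxorubicin 5 were lower and 3 higher (11.9% and 7.14%, against 10.3% and 11.9%, with a median of -0.39), shares close to or below those of all genes. Plod2 was among those lower after doxorubicin, with a log2 ratio of p53-/- over WT of -1.87.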

How the data were processed

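Per the labels and methods, Cy3-labeled RNA made by the authors from 200 ng of total RNA was hybridized to 4 one-color arrays of 1 slide, which were read with Agilent Feature Extraction 10.7.3.1. The deposited intensity of a spot is that program's processed signal, background-subtracted and not normalized between arrays, and the deposited flags, coded 0 or 1, mark spots well above background, saturated or outlying. A second deposited table held intensities equal to the processed signal at all 44397 spots (within 0.01%). Mean and background intensities, as deposited, served normexp only. Their fold changes, made with the Subio Platform, were not used here. Positions of probes (mm9) were taken as deposited.

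Collagen genes were the non-control spots whose gene name matched the symbol pattern. Outlier spots (162, 153, 145 and 168 per array, in the order of the report) were left out, and 0 spots were saturated. Repeat spots were combined as the mean log2 intensity, from which the log2 of the array's 75th percentile (signals of 2075, 1819, 1881 and 2422) was subtracted. For a gene with several probes, the brightest on average was used. A ratio was measured where both arrays were well above background. Where 1 was, its level was divided by the higher of the dim probe's own level and the lowest level so called on the other array (signals of 56.7, 44.3, 57.9 and 87.1) for an at-least fold. The brightest of 153 negative controls were 108, 77.5, 250.1 and 120. The number of arrays limits the precision. Classes, pathway lists and markers were chosen with earlier results of these data known. Named with values were genes well above background on all arrays and 2-fold apart in any comparison, Col1a1, Col1a2, Col3a1, Col4a1 and Col4a2, and of the pathway lists 6 genes set by name and the 3 highest and 3 lowest ratios per genotype. Loxl3, Itga11 and Lum were the lowest and Loxl4 was among the highest in both. Col2a1, Col4a4, Col4a6, Col6a6, Col7a1, Col12a1, Col13a1, Col23a1, Col28a1, Dcn and single markers were given values outside this rule, chosen after they were seen. Promoters came from RefSeq (GRCm38.p6).

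Alternatives were array median scaling, quantile normalization, normexp (limma 3.58.1 in R 4.3.3, offset 50), no filter, a filter on all 4 arrays, a filter on negative controls, averaging all probes of a gene, the deposited table, and thresholds of 1.5-fold and 3-fold. Steps were tested on simulated data. Python 3.11.15, numpy 2.4.6, pandas 2.3.3 and matplotlib 3.10.9 were used.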

Additional observations from a re-analysis of the deposited data

Results flagged for a closer look

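Doxorubicin ratios of 3 collagen genes had opposite signs in WT and p53-/- MEFs, each by at least 1.5-fold. For Col11a2 the log2 ratios were 1.14 in WT and -0.62 in p53-/- MEFs, a difference of 1.76. With normexp its p53-/- ratio was -0.50, under 1.5-fold. For Col16a1 they were 0.62 and -0.78, a difference of 1.41. Its other probes gave 0.31 and 0.02 in WT MEFs, and median scaling gave 0.35, all under 1.5-fold. For Col25a1 they were -1.25 and 0.91, a difference of -2.16. Each value rests on 1 array per condition, and the differences were not tested. The SD of such a difference between repeat spots was 0.16.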

How the results depend on the processing

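No paired analysis was possible because each condition had 1 array, and for the same reason no replicate was left out. A block for the slide was not run because all arrays shared 1 slide. The deposited table of intensities gave the values of the processed signals.

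With scaling to the array median, 3 collagen genes were higher with doxorubicin in WT MEFs, 0 were higher in p53-/- MEFs and 14 were lower there. The class medians (fibrillar, basement membrane, other) were -0.85, -0.65 and -0.55 in WT and -0.92, -0.30 and -0.81 in p53-/- MEFs, while the median of all genes moved to -0.27 and -0.30. With quantile normalization the median of other collagens in WT MEFs was -0.44, 0 genes were higher in p53-/- MEFs, the fibrillar median there was -0.47, and the fibrillar median of p53-/- over WT MEFs after doxorubicin was -0.20. With normexp, 0 genes were higher in p53-/- MEFs and the fibrillar median there was -0.50. Without the filter on dim probes, the median of other collagens was -0.14 in WT MEFs, -0.27 in p53-/- MEFs and -0.18 between treated genotypes, 5 genes were higher in p53-/- MEFs, and the basement membrane median there was 0.15. With only signals above the brightest negative control, 0 genes were higher in p53-/- MEFs, the medians there were -0.39 for basement membrane and -0.78 for other collagens, and the untreated basement membrane median between genotypes was -0.17. With all probes of a gene averaged, the basement membrane median was -0.24 in WT MEFs and, between treated genotypes, was -0.082 where the reported value was 0.28, and that of other collagens between treated genotypes was -0.48. The causes were not tested.

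At 1.5-fold, 10 genes were higher and 14 lower with doxorubicin in WT MEFs (all genes, 20.7% and 20.0%), 3 and 16 in p53-/- MEFs (19.4% and 15.9%), 4 and 12 between untreated genotypes (8.74% and 8.66%), and 6 and 12 between treated genotypes (22.8% and 19.7%). At 3-fold, 3 were higher and 4 lower in WT MEFs (5.07% and 4.18%), 0 and 1 in p53-/- MEFs (3.82% and 2.26%), 0 and 1 between untreated genotypes (0.254% and 0.716%), and 1 and 4 between treated genotypes (5.29% and 4.82%). No single gene called at 2-fold changed sign under the alternatives run. Of the 15 calls in WT MEFs, 13 remained with median scaling, 14 with quantile normalization and 13 with normexp, and of the 6 calls in p53-/- MEFs 4 remained with each of these. Some genes short of 2-fold passed it under an alternative. The p53-/- doxorubicin ratios of Col2a1, Col4a2, Col8a1 and Col16a1 reached -1.14, -1.07, -1.28 and -1.08, and the WT ratio of Col3a1 reached -1.01. The call of Col8a2 between treated genotypes was lost with the mean of its probes (0.61), and the calls of Col9a1 (0.75) and Col11a2 (-0.95) between treated genotypes with normexp. The dimmest genes, Col4a4, Col11a2, Col20a1, Col22a1 and Col23a1, are limited by signal over background in untreated p53-/- MEFs.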
